A study of Mus musculus with 6 samples.

Results

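Complex I genes, the genes whose symbols start with Nduf, were followed in denervated gastrocnemius muscle of mice fed with or without maslinic acid (MA). Of 17097 genes that a probe set of the array named alone, 42 belonged to this family, and they were read by 75 probe sets. They comprised 33 genes counted as subunits of complex I, 1 of which, Ndufs5-ps, is a pseudogene of a subunit, 7 assembly factors, Ndufa4, which is now assigned to complex IV, and its paralog Ndufa4l2. Where several probe sets read a gene, the brightest was used, that is the one with the highest mean over the 6 arrays. The MA group, 3 arrays, came from male Slc:ICR mice given the AIN-93G diet with 0.27% MA, and the control group, also 3 arrays, from mice given AIN-93G without it. The mice were 7 weeks old when bought and were acclimated for 1 week before the diets began. Surgery came 1 week after the start of the diets. Both sciatic nerves of every mouse were severed, so that muscle with an intact nerve was not part of the comparison. Muscle was taken on day 14 after denervation.

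Complex I is the entry point of the mitochondrial respiratory chain. Its matrix arm oxidizes NADH and passes the electrons along iron-sulfur clusters to ubiquinone, while its membrane arm pumps protons. A small set of core subunits does the catalysis, accessory subunits surround and stabilize them, and assembly factors build the complex without remaining in it. In skeletal muscle, oxidative fibers hold more mitochondria than glycolytic ones, and loss of the nerve is known to lower the expression of many mitochondrial genes. The core subunits of the membrane arm are encoded by mitochondrial DNA and were not analysed here. Neither were Ndufs5, Ndufa13, Ndufb1, Ndufb6 and Ndufaf7.

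The values were log2 RMA values as deposited. Across probe sets, r was 0.9992 to 0.9997 for arrays within a group and 0.9934 to 0.9937 for arrays between groups. Neither labels nor methods state that each array is a mouse of its own, and p-values therefore measure only the spread between arrays, which may be technical. Precision is limited by how few arrays there were, since with 3 against 3 the smallest two-sided p of an exact permutation test is 0.1. The 18 probe sets of the hybridization controls, added to every sample, were all higher in the MA group, by 0.035 to 0.35 with a median of 0.173 on the log2 scale. Markers of skeletal muscle fibers were the tissue check, and all 6 lay between 11.7 and 12.6. The array's controls for nonspecific binding reached 3.95, leaving out the one whose probes hold only G and C, and all 42 complex I genes lay above that level.

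Complex I genes were higher in the MA group on balance, by small amounts. The words rose and fell are kept for genes with an adjusted p under 0.05 in limma, with Benjamini-Hochberg adjustment over 45037 probe sets. By this rule 28 of 42 rose, 66.7%, and 0 fell, while 14 did not pass. Of all genes, 24.7% rose and 23% fell. At an unadjusted p under 0.05, 30 complex I genes were higher and 0 were lower, and the one-way test of the methods also called 0 lower. The share of all genes at an unadjusted p under 0.05 is not given here, so the 30 cannot be set against it. The median difference between MA and control was 0.102 on the log2 scale over the 42 genes and 0.00625 over all genes. Differences ran from -0.004 for Ndufaf8 to 0.31 for Ndufaf5. Past a 1.2-fold change, the threshold of the methods, were 2 of the 42, Ndufaf5 and Ndufb5, where 5.92% of all genes rose past it. The 3 MA arrays lay above all 3 control arrays at 36 of the 42 genes, against 30.8% of all genes, and below them at none. Measured in each array, the median over the 42 genes was 10.341, 10.345 and 10.330 in the MA group and 10.235, 10.245 and 10.249 in the control group. The median of the differences was thus below that of the hybridization controls, and 11 of the 42 genes differed by more than its 0.173. The part of the hybridization controls in the result was not tested.

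**Figure D1:**
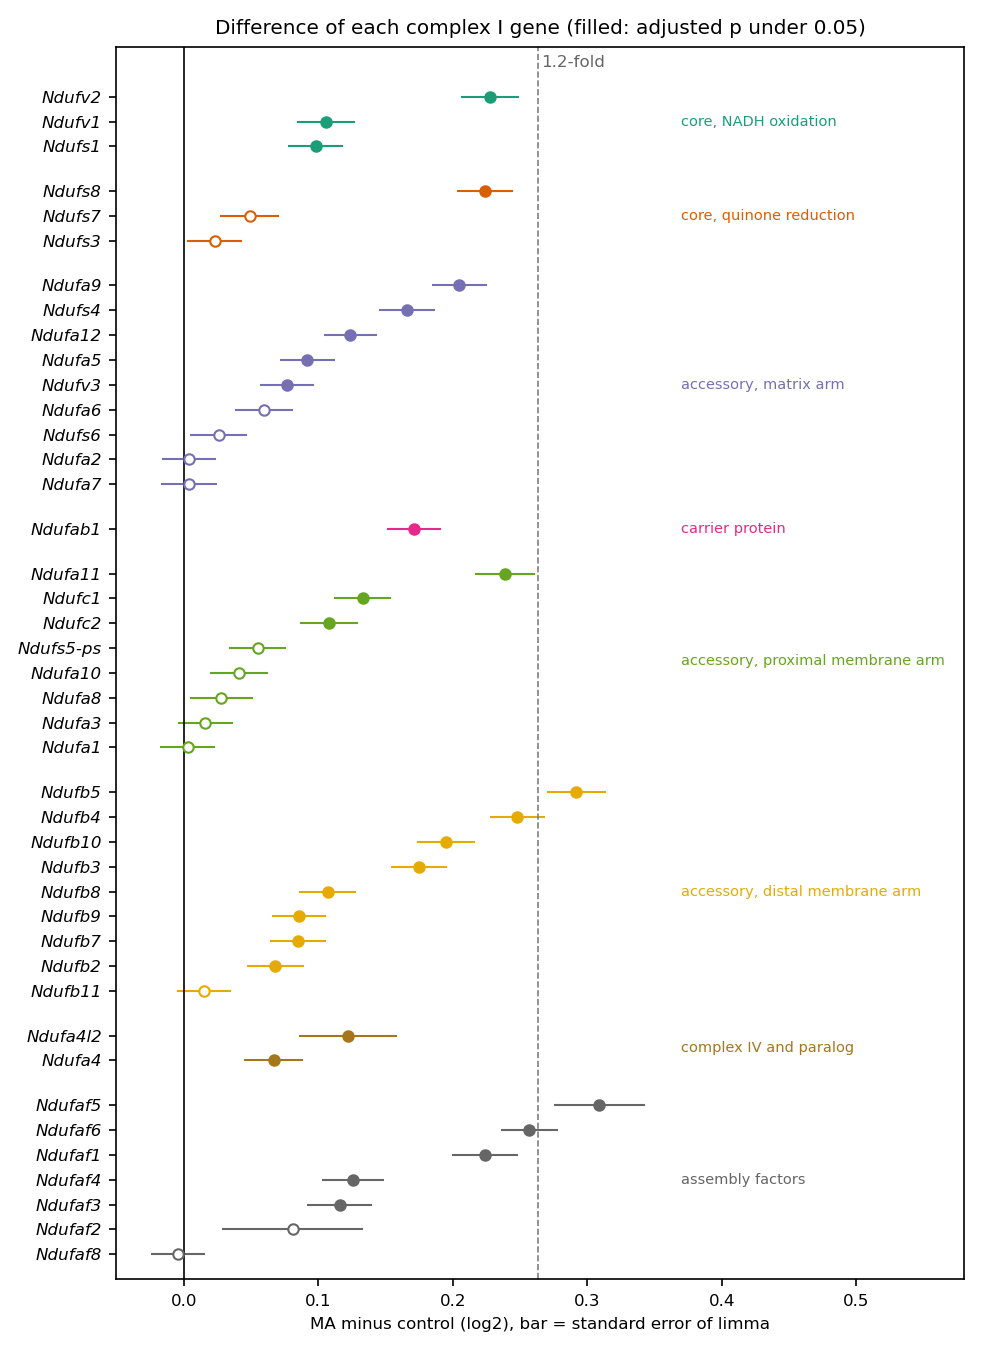
MA minus control (log2, horizontal axis) for each of the 42 complex I genes, ordered by role, with bars for the standard error of limma and filled points where the adjusted p was under 0.05. Filled points number 28, all to the right of 0, and Ndufaf5 and Ndufb5 lie past the dashed line at 1.2-fold.

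**Figure D2:**
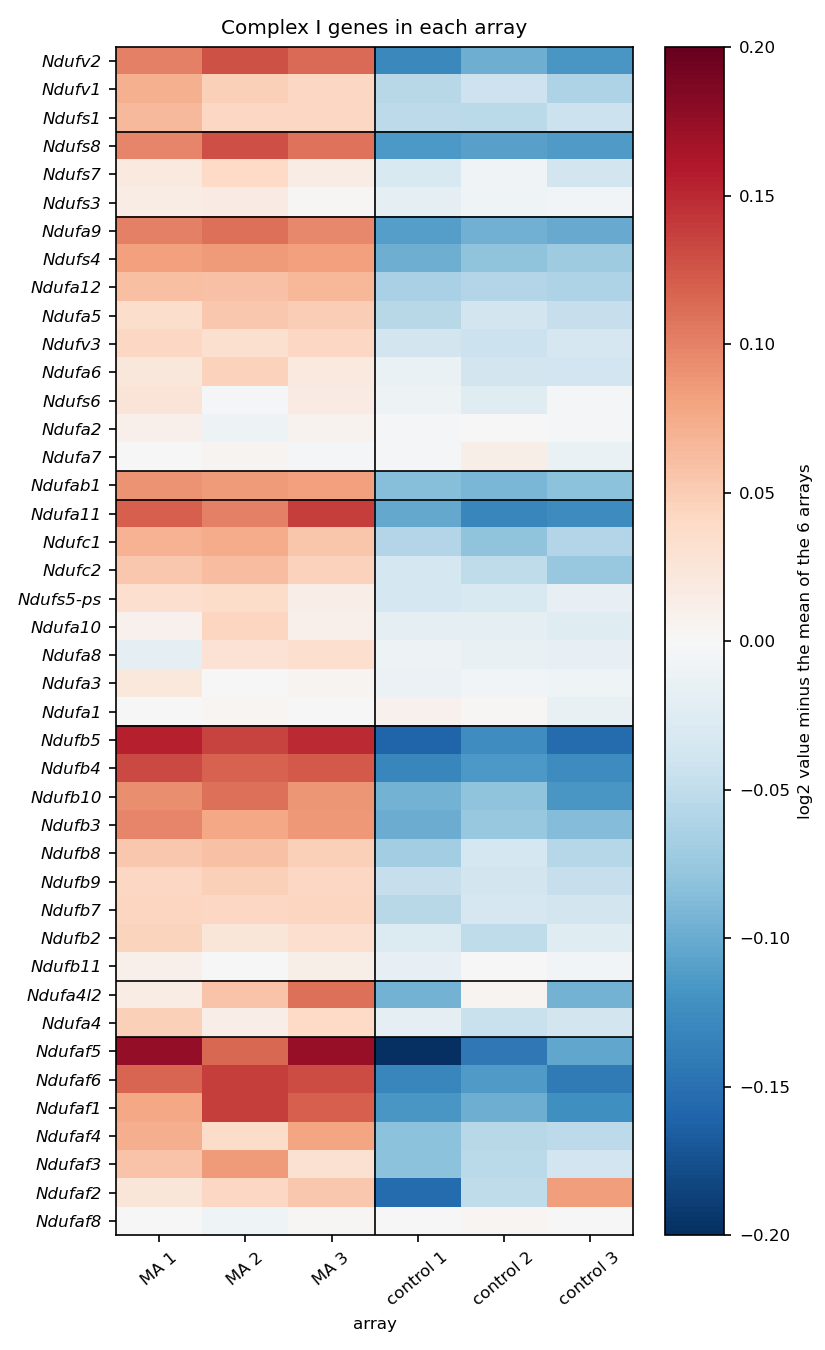
Log2 value of each of the 42 complex I genes in each of the 6 arrays, as the distance from the gene's mean over the 6 arrays (colour, log2 units), with genes ordered by role. Red marks values above the mean and blue values below, and at 36 genes the 3 MA arrays all lie above the 3 control arrays.

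The nuclear-encoded core subunits that oxidize NADH all rose. Ndufv2, which carries an iron-sulfur cluster next to the NADH site, had log2 values of 10.76, 10.79 and 10.77 in the MA arrays and 10.53, 10.56 and 10.54 in the control arrays. Its difference was 0.23 (standard error 0.0216, limma adjusted p = 6.36e-05), a 1.17-fold rise. Ndufv1, which binds NADH and its flavin, read 10.11, 10.09 and 10.08 with MA and 9.98, 10.00 and 9.98 in the control group. The groups did not overlap and differed by 0.11 (adjusted p = 0.00448). At the other probe set of Ndufv1, with a mean of 9.30, the arrays overlapped and the difference of 0.024 did not pass (adjusted p = 0.457). Ndufs1, the largest iron-sulfur subunit, stood at 9.70, 9.67 and 9.67 against 9.58, 9.58 and 9.59, a difference of 0.10 (adjusted p = 0.00572).

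Of the core subunits that pass electrons to ubiquinone, 1 of 3 rose. Ndufs8, which carries a pair of iron-sulfur clusters, measured 9.97, 10.00 and 9.98 in the MA arrays and 9.76, 9.76 and 9.76 in the control arrays. The rise of 0.22 (standard error 0.021, adjusted p = 5.92e-05) came to 1.17-fold. Ndufs7, which holds the last cluster before ubiquinone, gave 10.03, 10.05 and 10.02 with MA and 9.98, 10.00 and 9.97 without it. The arrays did not overlap, but the difference of 0.05 did not pass (adjusted p = 0.102). The other probe set of Ndufs7, with a mean of 9.47, rose by 0.059 (adjusted p = 0.0453). Ndufs3, a structural subunit of the same module, was nearest to equal in this set, with 10.45, 10.46 and 10.44 against 10.42, 10.43 and 10.43 (difference 0.02, adjusted p = 0.397).

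Accessory subunits of the matrix arm rose in 5 of 9 cases and fell in none, with a median difference of 0.0765. Of genes with a mean over 9, where these subunits lay, 37.7% rose. Ndufa9, which binds NADPH near the ubiquinone site, rose by 0.21, from a mean of 10.19 ± 0.007 (SD, n = 3) in the control group to 10.40 ± 0.007 (SD, n = 3) in the MA group. Ndufs4, whose loss in mice gives a model of Leigh syndrome, rose by 0.17, Ndufa12 by 0.12, Ndufa5 by 0.09 and Ndufv3 by 0.08. Ndufa6, an anchor of the acyl carrier protein, differed by 0.06 with no overlap (adjusted p = 0.0537), and the zinc-binding Ndufs6 by 0.03 (adjusted p = 0.352). For Ndufa2 and Ndufa7 the arrays overlapped and the difference was 0.004 in each (adjusted p = 0.891 and 0.901). Ndufab1, the mitochondrial acyl carrier protein, which sits in both arms, rose by 0.17, with 10.85 in all 3 MA arrays and 10.67 to 10.68 in the control arrays (adjusted p = 0.000222).

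Membrane arm subunits differed by their place in the arm in how many passed. At the distal end, far from the matrix arm, 8 of 9 rose, and at the proximal end 3 of 8 did, with median differences of 0.107 and 0.0479. Of genes with a mean over 9, where all these subunits lay, 37.7% rose, and the proximal share of 37.5% was near that. The MA arrays lay above all control arrays at 9 distal and 6 proximal genes, against 30.8% of all genes. Whether the shares of the distal and proximal ends differ was not tested. Ndufb5, a distal subunit, had 11.26, 11.24 and 11.25 in the MA arrays and 10.94, 10.98 and 10.95 in the control arrays. That was a 1.22-fold rise (log2 difference 0.29, standard error 0.0218, adjusted p = 1.55e-05), the largest among the 33 subunits. Ndufb4, also of the distal end, gave 10.86, 10.84 and 10.85 against 10.60, 10.61 and 10.60, a 1.19-fold rise (adjusted p = 2.72e-05). RefSeq lists a further gene, Ndufb4b, whose transcripts the probes may not separate from those of Ndufb4. Ndufb10 and Ndufb3 rose by 0.20 and 0.18, and Ndufb8, Ndufb9, Ndufb7 and Ndufb2 rose by 0.11, 0.09, 0.09 and 0.07. Ndufb11 differed by 0.02 (adjusted p = 0.587). Of its 3 probe sets 1 rose, by 0.077 at a mean of 10.38 (adjusted p = 0.016).

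In the proximal membrane arm, Ndufa11 rose most. It read 9.73, 9.71 and 9.75 with MA and 9.51, 9.48 and 9.49 in the control group (log2 difference 0.24, standard error 0.0223, adjusted p = 5.78e-05), so that the lowest MA array lay well above the highest control array. Ndufc1 rose by 0.13 and Ndufc2 by 0.11. The others did not pass, with 0.06 for Ndufs5-ps, 0.04 for Ndufa10, 0.03 for Ndufa8, 0.02 for Ndufa3 and 0.003 for Ndufa1. Ndufs5-ps is the symbol in the platform annotation and a transcribed pseudogene in RefSeq, and its probe sets may read the subunit gene Ndufs5 as well. Ndufa1, a small X-linked subunit needed for assembly, had 11.17 in the 3 MA arrays and 11.18, 11.17 and 11.15 in the control arrays (adjusted p = 0.925).

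Assembly factors rose in 5 of 7 cases, with a median difference of 0.126, where 24.7% of all genes rose. Ndufaf5, which modifies an arginine of Ndufs7, had 6.33, 6.27 and 6.33 in the MA arrays and 5.94, 6.01 and 6.05 in the control arrays, a 1.24-fold rise (log2 difference 0.31, standard error 0.0338, adjusted p = 0.000148). Its partner Ndufaf8 did not follow, with 8.67, 8.67 and 8.68 against 8.68, 8.68 and 8.67 (adjusted p = 0.887). The separation of the groups was complete for Ndufaf5, and for Ndufaf8 the arrays overlapped. Ndufaf6, which acts on the early membrane arm, stood at 6.44, 6.47 and 6.46 with MA and 6.20, 6.21 and 6.19 without it, a rise of 0.26 (adjusted p = 2.72e-05).

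Ndufaf1, a factor of the membrane arm that works with Ecsit and Acad9, measured 7.62, 7.68 and 7.66 against 7.42, 7.44 and 7.42 (log2 difference 0.22, adjusted p = 0.00014). Ndufaf4 gave 8.74, 8.70 and 8.74 in the MA group and 8.58, 8.61 and 8.61 in the control group (difference 0.13, adjusted p = 0.00263). Ndufaf3, its partner in building the ubiquinone module, gave 7.21, 7.24 and 7.18 and 7.07, 7.10 and 7.11 (difference 0.12, adjusted p = 0.00548). Both pairs of groups were apart in all arrays. Ndufaf2, a late factor and paralog of Ndufa12, had the widest spread of the family, with 6.29, 6.40 and 6.53 in the control arrays against 6.47, 6.49 and 6.50, and did not pass (difference 0.08, adjusted p = 0.253). Without control replicate 3 it did (difference 0.143, adjusted p = 0.018).

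Promoter sequence was examined for all complex I genes that had a window. RefSeq windows of GRCm38.p6 were matched by gene identifier for 36 of the 42 genes, 38 windows in all, and the 250 bases before the start were searched on both strands for 4 motifs of regulators of mitochondrial genes. The NRF1 motif, a palindrome made of GCGCA and its reverse complement with no gap, occurred in 2 of the 38 windows, those of Ndufa11 and Ndufaf4, or 5.26%, and in 0.782% of all 32851 windows of the same length. The GABPA motif CCGGAAG was present in 4, or 10.5%, against 6.91% of all windows. These were the windows of Ndufaf1 and Ndufb7, which rose, and of Ndufs3 and Ndufaf8, which did not pass. CAAGGTCA, of estrogen-related receptors, and AAGATGGC, of YY1, were found in none of the 38, against 1.33% and 1.56% of all. No motifs overlapped in these windows. A match is a description of the letters and not a site of binding. The windows of both genes past 1.2-fold and of 3 others, 1 with the NRF1 letters and 2 with those of GABPA of which only the first rose, are given 5′ to 3′ on the gene's strand, with the motif in capitals and the last base next to the start.
Ndufaf5 (chr2:140170396-140170645, + strand): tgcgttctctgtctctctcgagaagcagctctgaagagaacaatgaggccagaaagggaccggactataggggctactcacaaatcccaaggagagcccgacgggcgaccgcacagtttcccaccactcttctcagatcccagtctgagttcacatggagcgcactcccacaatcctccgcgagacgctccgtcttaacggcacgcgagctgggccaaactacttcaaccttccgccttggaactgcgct
Ndufb5 (chr3:32736813-32737062, + strand): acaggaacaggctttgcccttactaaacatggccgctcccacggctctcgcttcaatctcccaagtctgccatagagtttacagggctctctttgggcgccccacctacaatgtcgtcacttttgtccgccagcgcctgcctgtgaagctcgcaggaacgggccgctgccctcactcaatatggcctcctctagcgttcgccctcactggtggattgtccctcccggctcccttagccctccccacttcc
Ndufa11 (chr17:56717512-56717761, + strand): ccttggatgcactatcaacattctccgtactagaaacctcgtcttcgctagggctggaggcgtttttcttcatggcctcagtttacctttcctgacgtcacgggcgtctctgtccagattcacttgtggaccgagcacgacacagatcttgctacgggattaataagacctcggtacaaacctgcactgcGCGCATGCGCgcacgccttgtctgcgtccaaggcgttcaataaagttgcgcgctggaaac
Ndufaf1 (chr2:119662835-119663084, - strand): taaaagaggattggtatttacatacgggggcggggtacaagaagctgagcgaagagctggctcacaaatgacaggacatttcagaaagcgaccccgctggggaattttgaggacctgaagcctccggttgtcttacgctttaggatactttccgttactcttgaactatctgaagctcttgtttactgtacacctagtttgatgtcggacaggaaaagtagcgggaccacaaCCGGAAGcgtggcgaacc
Ndufs3 (chr2:90904722-90904971, - strand): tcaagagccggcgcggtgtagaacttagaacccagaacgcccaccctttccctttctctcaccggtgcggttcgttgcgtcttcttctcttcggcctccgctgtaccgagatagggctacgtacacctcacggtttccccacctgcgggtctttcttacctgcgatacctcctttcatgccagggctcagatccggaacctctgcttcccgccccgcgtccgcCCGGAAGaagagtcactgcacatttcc
In Ndufa11 the motif began at -60, in Ndufaf1 at -18 and in Ndufs3 at -27, counted back from the start. The windows of Ndufaf5 and Ndufb5 held none of the 4 motifs.

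Ndufa4 and Ndufa4l2 carry the family's name although Ndufa4 belongs to complex IV. Ndufa4 had 11.21, 11.18 and 11.21 in the MA arrays and 11.15, 11.12 and 11.13 in the control arrays, a difference of 0.07 (adjusted p = 0.0371). Ndufa4l2, a paralog that hypoxia induces, had 4.88, 4.93 and 4.98 against 4.77, 4.87 and 4.77, a difference of 0.12 (adjusted p = 0.0267), with MA replicate 1 and control replicate 2 almost level. The calls of both were among those that single arrays decided. Ndufa4 lost its call without any 1 of 5 arrays, all but control replicate 1, with adjusted p up to 0.108, and Ndufa4l2 without MA replicate 2, MA replicate 3, control replicate 1 or control replicate 3, with adjusted p up to 0.0899. Ndufb2 lost its call without any 1 array other than control replicate 1 (adjusted p up to 0.102), and Ndufv3 without control replicate 2 (adjusted p = 0.0515). The other 24 of the 28 genes that rose kept their call without any 1 array.

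Different probe sets of the same gene mostly ran the same way. Of 22 genes with several probe sets, 15 had at least 1 that rose and none that fell, 9 of these at every probe set, and 4 had none that passed. The remaining 3 had probe sets in both directions. Ndufab1 rose by 0.17, 0.19 and 0.29 at 3 probe sets and fell by 0.16 at the remaining one, whose mean of 3.61 was under the background. Ndufb4 rose by 0.25 and 0.30 and fell by 0.08 at a probe set with a mean of 4.15. Ndufs4 rose by 0.17 at its brightest probe set, fell by 0.17 at one with a mean of 5.77 (adjusted p = 0.00123) and did not pass at one with a mean of 5.42 (difference -0.02, adjusted p = 0.661). Averaged over its probe sets, Ndufs4 differed by -0.01 (adjusted p = 0.777). Ndufb5 rose at both of its probe sets, by 0.29 and 0.39. Ndufa7 rose by 0.08 and 0.22 at 2 of its 5 probe sets, neither of them the brightest, and passed when the 5 were averaged (difference 0.0624, adjusted p = 0.0193). Of all 75 probe sets, 47 rose, 3 fell and 25 did not pass, where 21.6% of the probe sets of the array rose and 21.4% fell.

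**Figure D3:**
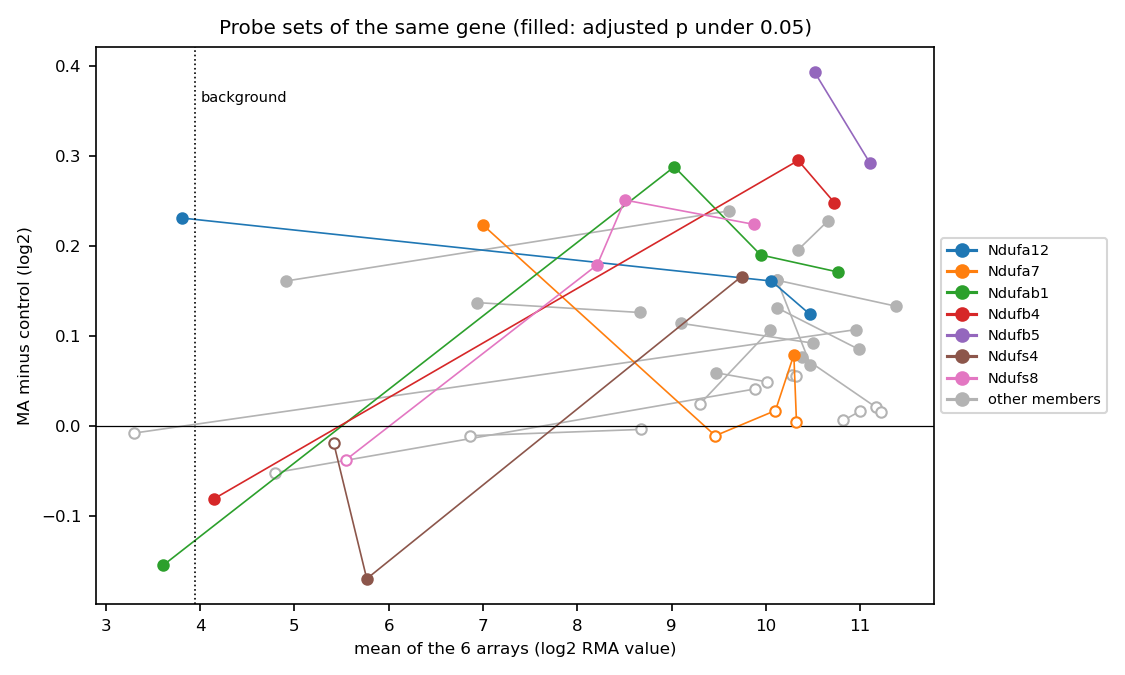
MA minus control (log2, vertical axis) against the mean over the 6 arrays (log2 RMA value, horizontal axis) for each probe set of the 22 complex I genes that have several, with lines joining probe sets of 1 gene and filled points where the adjusted p was under 0.05. The filled points below 0 belong to Ndufab1, Ndufb4 and Ndufs4 and lie at means of 3.61, 4.15 and 5.77, far to the left of the probe sets of the same genes that rose.

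Arrays repeated each other closely for these genes. The median SD within groups was 0.011 over the complex I genes and 0.03 over all genes, and the median standard error of the difference was 0.021 and 0.028. All genes include 4968 at or under the background, and the SD of genes of like signal is not given here. All 33 subunits, Ndufs5-ps included, had a mean over 9, where 1130 genes lay. Of those 1130, 37.7% rose and 32.6% fell, so that more passed in both directions than among all genes, and their median difference was 0.00433. Of the 33 subunits, 63.6% rose and none fell. Across the 42 genes, which are not independent and share the same arrays, the difference and the mean had r = -0.29.

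**Figure D4:**
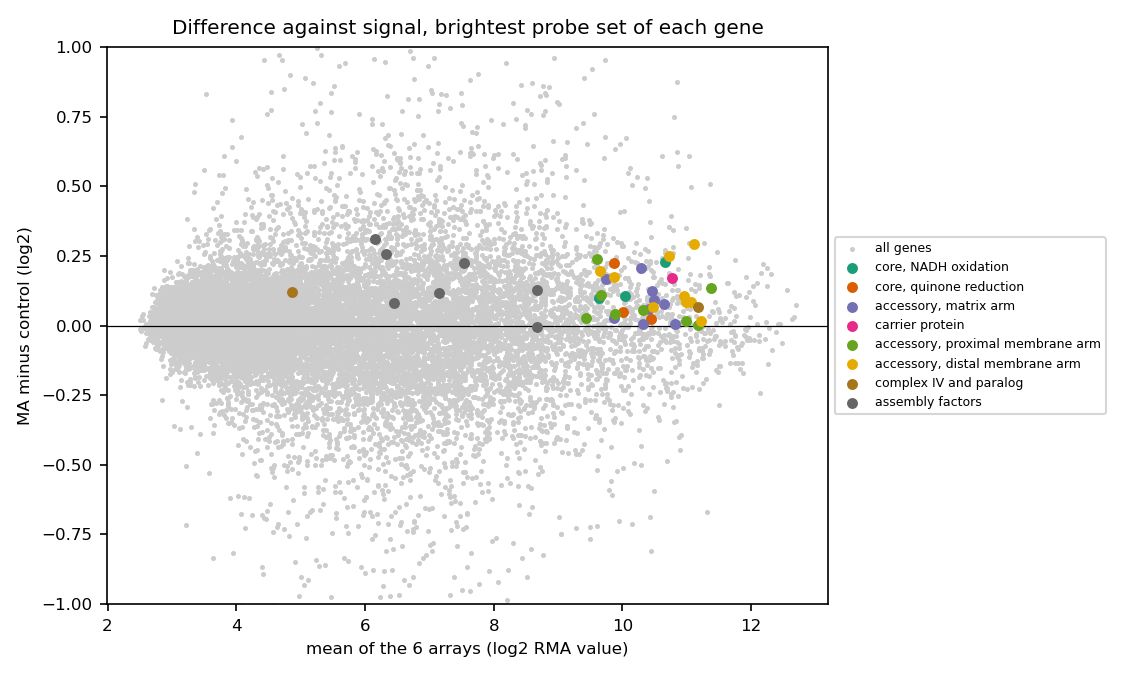
MA minus control (log2, vertical axis) against the mean over the 6 arrays (log2 RMA value, horizontal axis) for the brightest probe set of each gene, with all genes in grey and complex I genes coloured by role. The axis leaves out 150 genes that differ by more than 1, and the subunits lie at means of 9.43 to 11.4 with differences of 0.003 to 0.29.

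Assembly factors of complex I with other names were measured for 11 genes, of which 8 rose, 1 fell and 2 did not pass, with a median difference of 0.128. Timmdc1, which helps to build the membrane arm, rose by 0.38 and Ecsit, a partner of Ndufaf1, by 0.22. The one that fell was Dmac2, a factor of the distal membrane arm, by 0.19, named here after its value was seen. In the other complexes of the chain the genes went both ways. Of 42 measured genes of complexes II to V, 20 rose, or 47.6%, 6 fell and 16 did not pass, with a median of 0.0548. The difference from complex I was not tested. Of all genes 24.7% rose and 23% fell, and of the genes with a mean over 9, 37.7% rose and 32.6% fell. By complex, 2 of 4 genes of complex II, 4 of 8 of complex III, 6 of 14 of complex IV and 8 of 16 of complex V rose, and those that fell were 5 of complex IV and 1 of complex V. Sdhb, the iron-sulfur subunit of complex II, rose by 0.27 and Sdhd, one of its membrane anchors, by 0.10. Uqcrc2 and Uqcrb of complex III rose by 0.21 and 0.20. Cox7a1 and Cox6a2, isoforms of complex IV in heart and skeletal muscle, rose by 0.39 and 0.30, and Atp5g1 and Atp5j of the ATP synthase rose by 0.23 and 0.19. The 6 that fell, named here after their values were seen, included Cox7a2l, which takes part in joining complexes into supercomplexes. It fell by 0.28 (adjusted p = 1.69e-05), 1.22-fold lower and the only one of the 6 past 1.2-fold. Cox8a, Cox6a1, Cox4i1 and Cox8b of complex IV fell by 0.12, 0.11, 0.09 and 0.08, and Atpif1, an inhibitor of the ATP synthase, by 0.13.

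**Figure D5:**
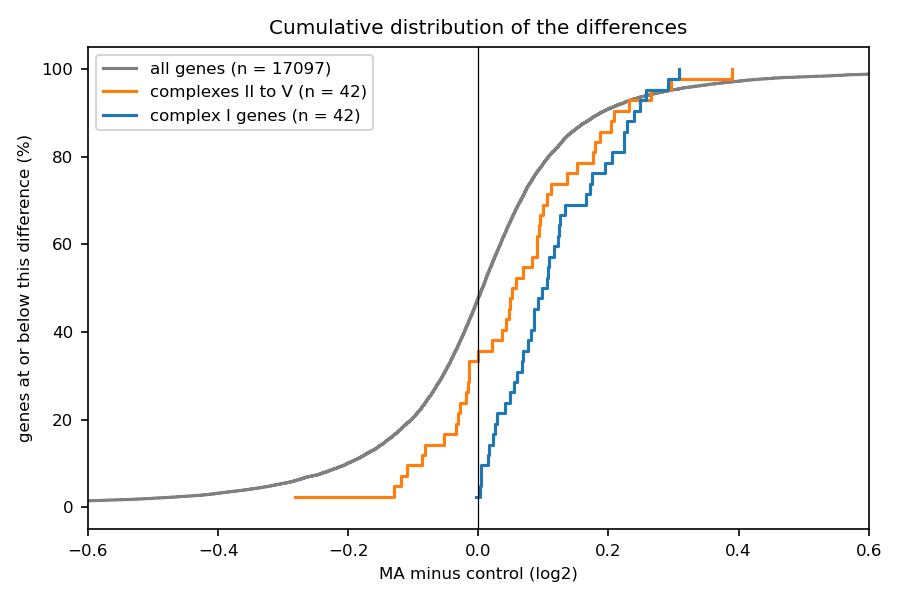
Share of genes (%, vertical axis) at or below each value of MA minus control (log2, horizontal axis, drawn over the middle of its range) for all 17097 genes, 42 genes of complexes II to V and the 42 complex I genes. The curve of complex I starts near 0 and has its median at 0.102, while those of complexes II to V and of all genes cross their medians at 0.0548 and 0.00625.

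Of 15 measured regulators of mitochondrial biogenesis, 6 rose, 3 fell and 6 did not pass, with a median of 0.0448. Esrrg, an estrogen-related receptor of oxidative muscle, rose by 0.20. Pprc1, a coactivator related to PGC-1 alpha, fell by 0.47, the largest difference of the list. Nrf1, whose motif was searched for, rose by 0.10 (adjusted p = 0.0369) and Gabpa differed by -0.005 (adjusted p = 0.881). Gabpb1, at a mean of 4.48, rose by 0.195 (adjusted p = 0.0132). These genes were chosen after their values were seen. Ppargc1a was not analysed here.

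Markers of fiber types and of other cells moved in the same arrays. In bulk muscle, fewer cells of a type and less RNA per cell cannot be told apart. Of 6 markers of slow fibers, which are rich in mitochondria, 5 rose and 1 fell, and their mean was 9.54 to 9.57 in the MA arrays and 8.34 to 8.35 in the control arrays. Of 8 markers of fast fibers, 4 rose and none fell, with a median difference of 0.0737. Of 6 macrophage markers, 5 fell, and their mean was 6.33 to 6.39 against 7.22 to 7.26. Endothelial markers fell in 3 of 4 cases (5.08 to 5.10 against 5.18 to 5.25), and markers of fibroblasts and tendon rose in 3 of 5 (6.87 to 6.91 against 6.30 to 6.33). In that last list Tnmd, Col1a1 and Scx rose by 1.79, 0.59 and 0.57. Pdgfra and Dcn did not pass, with differences of -0.042 and -0.043. Both measured adipocyte markers, Adipoq and Lep, rose, and of 2 Schwann cell markers 1 rose and 1 fell. Lep and S100b had means under the background. The part of these cells and fibers in the differences of complex I genes was not tested.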

How the data were processed

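Gastrocnemius RNA of 6 samples (MA 3, control 3) was labelled by the authors with a 3′ IVT kit and hybridized to Affymetrix mouse array strips. A human array is named in the series' design text, but the probe sets are of mouse. The deposited log2 values, 1 per probe set, were made by the authors in Expression Console with RMA, a method that subtracts background and equalizes the arrays by quantiles. The version is not given in the sources used here. RMA evens out the arrays, so that a shift common to most genes would not be seen.

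Of 45141 probe sets 104 array controls were set aside, and the other 45037 were fitted with lmFit and eBayes of limma 3.58.1 in R 4.3.3, with Benjamini-Hochberg adjustment over all of them. Probe sets were named through the platform annotation, by which 28898 name 1 gene, 551 several and 15588 none here. The steps were tested on simulated data. The members and lists were chosen with earlier results of these data known. Values in every array are given for the 8 largest rises among genes with an adjusted p under 0.05, for the measured core subunits, for assembly factors that passed and for Ndufa4 and Ndufa4l2, and outside the family up to 2 genes of a list are named. Other genes named singly were chosen after their values were seen. Promoter windows are those of RefSeq.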

Additional observations from a re-analysis of the deposited data

How the results depend on the processing

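Genes that rose numbered 28 with the tests as reported, 28 to 33 over the other settings with all 6 arrays and 25 to 28 when each array was left out, and no complex I gene fell in any of them. These settings comprised filters on dim probe sets, the mean of a gene's probe sets, array weights, a replicate block, a trend or robust moderation in eBayes, a further quantile normalization, median centring and the methods' one-way test. Apart from the replicate block, shares of all genes that rose under these settings or without an array are not given here. The counts therefore cannot be set against them. The median difference was 0.0972 to 0.103 without each array. With probe sets kept only above the highest control for nonspecific binding, at 7.24, which took out 5 complex I genes, it was 0.0922 and 1 gene was past 1.2-fold in place of 2. The count of genes that rose under that filter is out of the complex I genes that were left. A fold over 1.1 gave 13 genes and a fold over 1.5 gave 0. The shares of all genes past these folds are not given here, so the 13 cannot be set against them. A filter at the background of 3.95 was chosen after seeing the data. With the mean of its probe sets, Ndufs4 turned to -0.00787 (adjusted p = 0.777) and Ndufb8 lost its call (0.0495, adjusted p = 0.128). The probe set of Ndufb8 that was not the brightest had a mean of 3.30, under the background. For the trend, 33 rose, with Ndufa6, Ndufa10, Ndufs3, Ndufs5-ps and Ndufs7 added.

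The replicate numbers are only numbers in the labels. Deviations of same-numbered arrays correlated with r = 0.042 to 0.19, and 4 of 6 arrays correlated best with their own number. With the replicate number as a block, 28 complex I genes rose, the same 28, with the median still 0.102, 2 past 1.2-fold higher and 0 lower. Among all genes 4306 rose and 4033 fell with the block, where the tests as reported gave 4227 and 3938.

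Small differences near 0 are limited by 3 arrays a group, and 40.5% of probe sets lay at or under the background.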
